A study of Mus musculus with 15 samples.

Results

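Motor neurons that supply the tibialis anterior (TA), the large muscle at the front of the shin, were compared with those that supply the intrinsic foot muscles (IF), the small muscles within the foot. The comparison used the 3 TA libraries and the 3 IF libraries, 6 of the 15 RNA-seq libraries in the series, chosen by their pool labels alone. The 9 other libraries came from the extensor digitorum longus (EDL), peroneus longus (PL) and gastrocnemius (GS) pools. They entered the same fit, where they helped to set which genes were tested, the scaling and the estimate of the spread. All animals were wild-type mice aged postnatal day 6, and no strain, genetic change or drug separated the groups. A motor pool was marked by 0.1% CTB-Alexa 555, a fluorescent retrograde tracer, which was put into the muscle at day 4. Traced cells were cut by laser from frozen cord sections 12 µm thick. Each library held 30 to 40 cells pooled from 2 to 5 animals. The IF label covers a set of muscles rather than 1 muscle. No label ties a library to particular animals, although the titles speak of biological replicates, so the p-values measure the spread between these pooled libraries.

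Motor neurons of one pool lie together in the ventral horn and share a muscle target. Which muscle they reach is specified in the embryo by Hox and LIM homeodomain transcription factors along the body axis and across the motor columns. Retinoic acid, made from vitamin A by retinaldehyde dehydrogenases such as Aldh1a2, acts on these neurons and is carried inside cells by binding proteins such as Crabp2. Isl1 is a LIM homeodomain factor known for its place in motor neurons of the medial division of the lateral motor column, which project to ventral limb muscles. Hoxc10 is a lumbar Hox gene.

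The deposited counts summed to between 5775369 and 7042076 reads in TA and between 5757374 and 8258781 in IF. Genes with at least 1 read numbered 13488 ± 374 in TA (SD, n = 3) and 16895 ± 371 in IF, and the groups did not overlap (exact permutation p = 0.1, two-sided, the smallest that 3 against 3 libraries allow). At equal depth the numbers were 13434 and 16736. The IF libraries were also closer to each other, with rank correlations over the tested genes of 0.953 to 0.961 against 0.775 to 0.804 in TA. For genes at 10 CPM or more, the median coefficient of variation was 16% in IF and 50.2% in TA. CPM here means counts per 1e+06 counts in the TMM-scaled library.

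The motor neuron label was checked against 8 markers, whose summed level ran from 50320 to 117097 CPM in TA and from 36628 to 44478 in IF, with none of them at 0 in either pool. This sum is mainly a neurofilament level, since the 5 neurofilament and peripherin genes alone summed to 49434 to 117094 CPM in TA and 36710 to 44446 in IF. Peripherin (Prph) lay the other way without overlap, at 946, 900 and 384 CPM in TA and 1716, 1458 and 1498 in IF. It was not called (edgeR adjusted p = 0.25). The motor neuron homeodomain factors were low in both pools, Isl2 at 0.678 to 11.1 CPM in TA and 5.35 to 8.37 in IF, and Mnx1 at 1.76 to 31.2 and 3.18 to 4.68. Slc5a7, the choline transporter, was at 1173 to 1817 CPM in TA and 706 to 735 in IF. Chat, which makes acetylcholine, was at 93.1, 150 and 222 CPM in TA and at 84.3, 80.3 and 85.2 in IF. Its log2 fold change, TA minus IF, was 0.90 ± 0.41 (SE), which edgeR's quasi-likelihood test did not call (Benjamini-Hochberg adjusted p = 0.418). Markers of other cells were present as well. Oligodendrocyte markers summed to 820, 921 and 1767 CPM in TA 1, TA 2 and TA 3 and to 272 to 297 in IF, with Opalin at 0 in both pools. Astrocyte markers summed to 3107 to 4191 CPM in TA and 2050 to 2344 in IF, and interneuron markers to 344 to 391 and 98.8 to 157. Slc1a2 made up a large part of the astrocyte sum, at 1308 to 2200 CPM in TA and 608 to 803 in IF. Muscle markers summed to 0 to 1.08 CPM in TA, where 7 of the 8 had no read, and to 14 to 17 in IF. Fibroblast markers summed to 60.5 to 128 CPM in TA and 35.7 to 58.4 in IF, without overlap. None of the 5 fibroblast markers tested separated the pools by itself, so the sum alone does not show a fibroblast difference. Pdgfra, which also stands in the oligodendrocyte list, made up a large part of this sum. It overlapped between the pools, at 20.05 to 90.7 CPM in TA and 22.1 to 32.4 in IF. Endothelial and microglial sums overlapped between the pools. In such bulk samples, fewer cells of a type and less RNA per cell cannot be told apart.

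**Figure D1:**
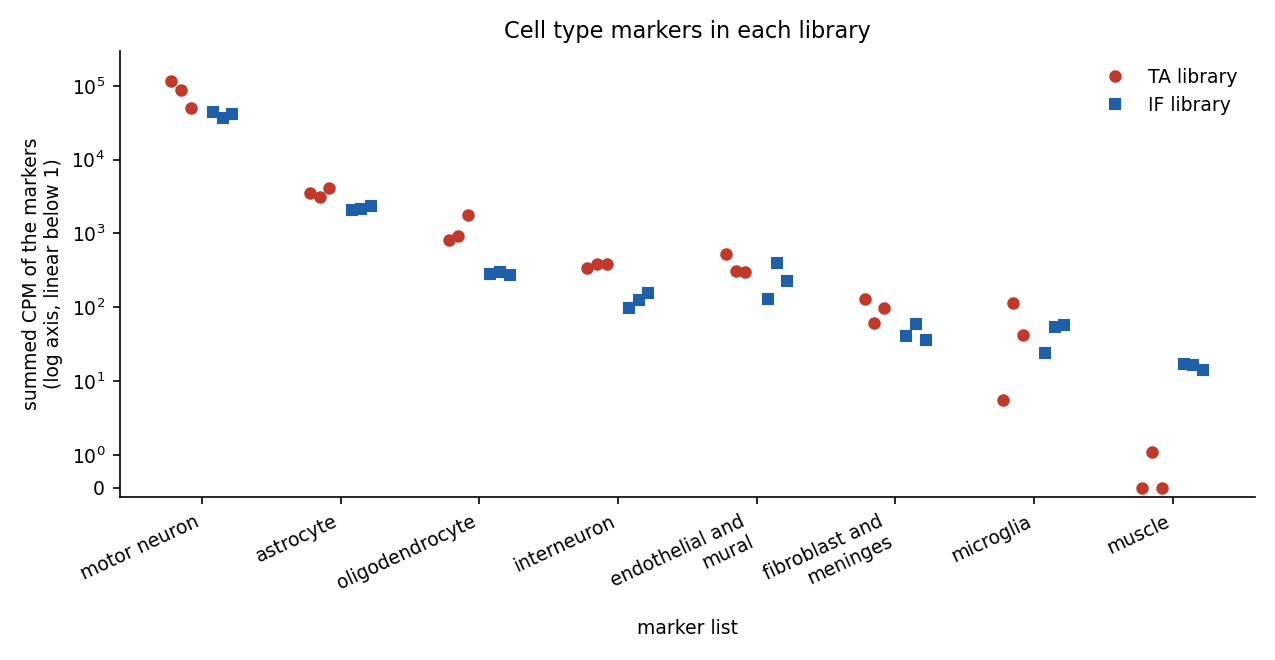
Summed CPM of each cell type marker list (y axis, log scale, linear below 1) in the 3 TA libraries (circles) and the 3 IF libraries (squares). The oligodendrocyte sums of TA (820 to 1767 CPM) lie above those of IF (272 to 297 CPM), and the muscle sums lie the other way.

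Of 14340 genes tested, 90 (0.628%) differed between TA and IF at an adjusted p under 0.05. Of these, 55 (0.384% of those tested) were higher in TA and 35 (0.244%) were higher in IF. Each count of called list members below is to be read next to these shares. In all 90 the 3 TA libraries lay apart from the 3 IF libraries, which also held for 29.7% of all tested genes. An unadjusted p under 0.05 was reached by 1594 genes (11.1%). The median log2 fold change over all tested genes was 0.05. The split between directions depended on the scaling and on the test. Without scaling factors 35 genes were higher in TA and 45 in IF, with the median of all genes at −0.34. With RLE scaling in place of TMM the split was 53 and 36. Limma voom, with the same TMM scaling as the main fit, gave 81 and 170 (median −0.31), and DESeq2 gave 195 and 225. Read counts near 0 were not shared evenly by the directions. Genes higher in TA were as a rule still detected in IF, whereas 11 of the 35 genes higher in IF had at most 3 reads over the 3 TA libraries (0.0767% of the tested genes). No gene called higher in TA had so few reads in IF. Over all tested genes, 475 had no read in any TA library and 13 had none in any IF library.

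The calls rested on few libraries. Without IF 1, IF 2 or IF 3 the count fell to 37, 36 and 38, and without PL 3 it rose to 188. With any 1 of the 15 libraries left out, 28 of the 90 genes were called in every fit, namely 10 of the 55 higher in TA and 18 of the 35 higher in IF. Of the 48 called genes that the naming rule picked, 18 were among those 28.

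**Figure D2:**
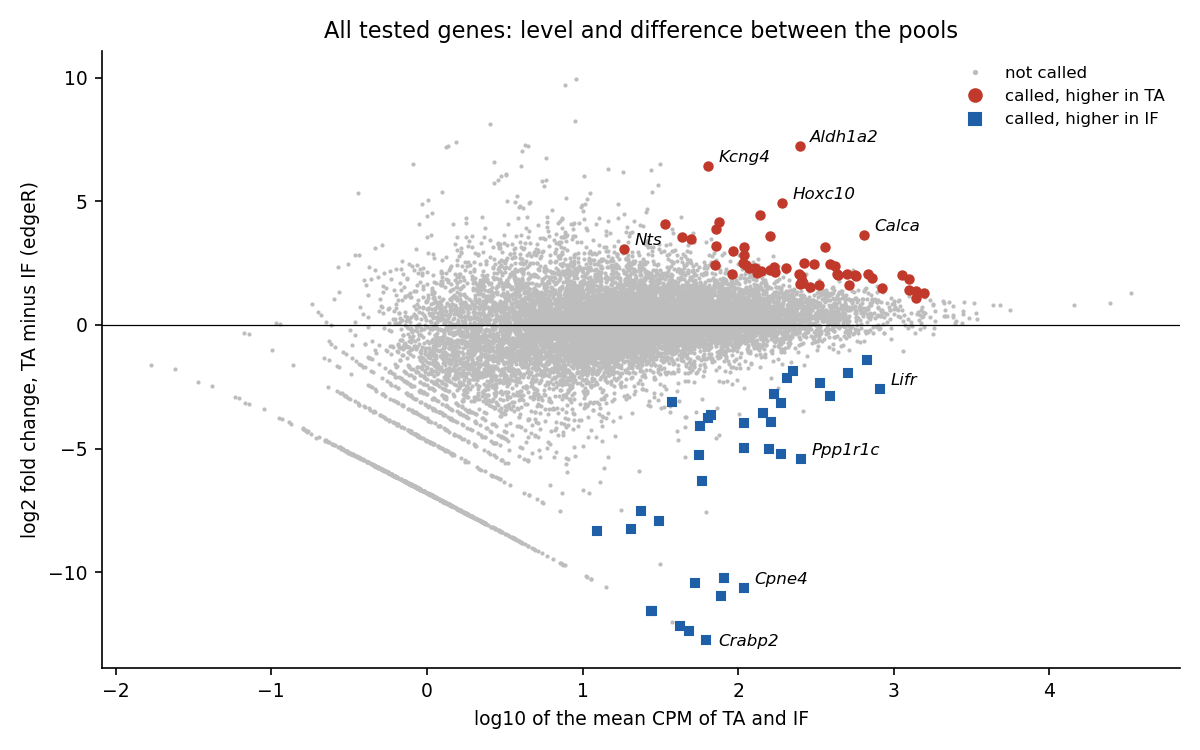
Mean level of each tested gene over the TA and IF pools (x axis, log10 CPM) against its fitted log2 fold change, TA minus IF (y axis). Circles mark the 55 genes called higher in TA and squares the 35 called higher in IF. The 5 genes without a read in either pool are not drawn, and the size of a fitted value is set in part by the prior count where a pool had almost no reads.

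**Figure D3:**
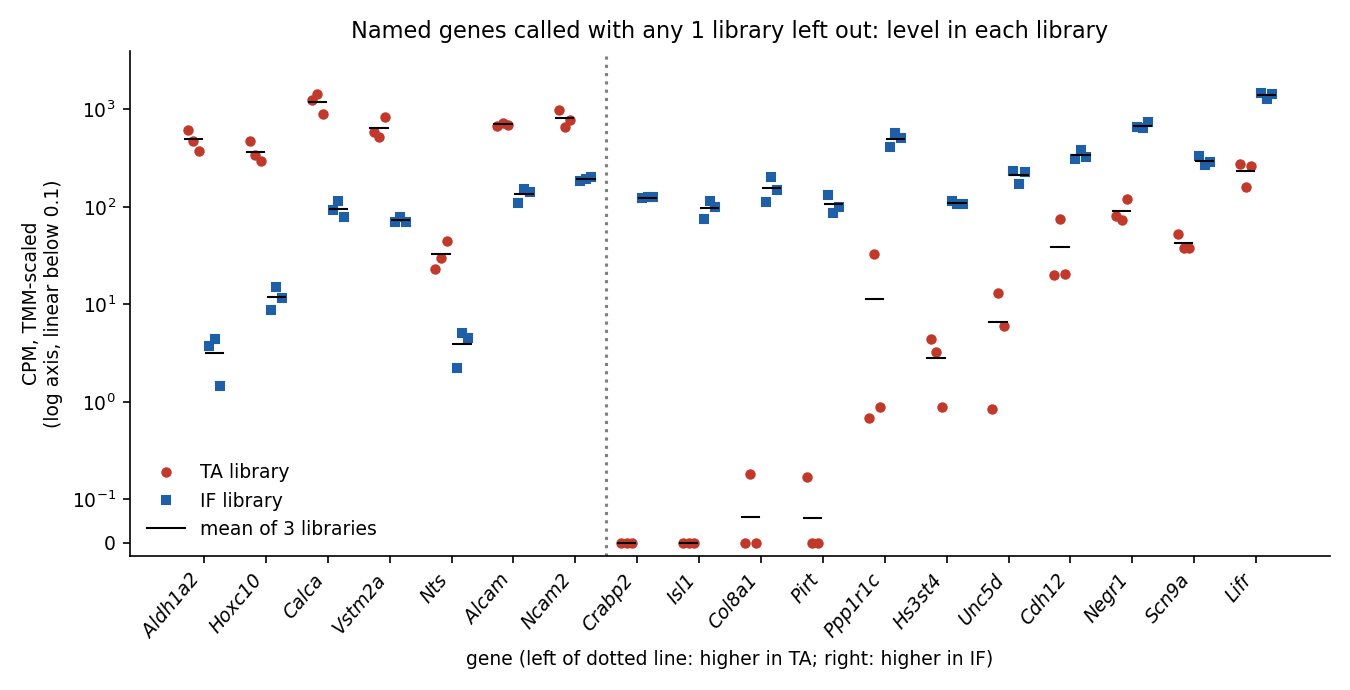
CPM in each library (y axis, log scale, linear below 0.1) of the 18 named genes that were called with any 1 library left out. Circles are TA libraries, squares are IF libraries and bars are means of 3. The circles and squares of a gene do not overlap, and Crabp2 and Isl1 sit at 0 in all 3 TA libraries.

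Promoter sequence is shown for 4 of the genes described below, 2 of them among the pool markers and 2 secreted peptide genes, so that short motifs can be seen in place. The windows are RefSeq entries on GRCm38.p6, which is not the build of the counts, and 71 of the 90 called genes matched one. Each line gives the 250 bases before the annotated start, 5′ to 3′ on the gene's strand. The stretches are chr9:71215539-71215788 for Aldh1a2 (plus strand), chr13:116309689-116309938 for Isl1 (minus strand), chr10:5638968-5639217 for Vip (plus strand) and chr1:79440027-79440276 for Scg2 (minus strand). Capitals mark matches, on either strand, to TGACGT (the core of the cAMP response element), ATTTGCAT (the octamer bound by POU factors) or TGATTNAT (a composite bound by Hox and Pbx proteins).
Aldh1a2: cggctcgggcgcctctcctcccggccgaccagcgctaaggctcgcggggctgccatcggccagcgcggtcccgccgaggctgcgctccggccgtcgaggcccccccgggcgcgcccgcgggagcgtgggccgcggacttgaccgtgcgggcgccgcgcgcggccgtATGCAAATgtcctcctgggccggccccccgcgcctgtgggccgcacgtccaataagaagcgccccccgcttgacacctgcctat
Isl1: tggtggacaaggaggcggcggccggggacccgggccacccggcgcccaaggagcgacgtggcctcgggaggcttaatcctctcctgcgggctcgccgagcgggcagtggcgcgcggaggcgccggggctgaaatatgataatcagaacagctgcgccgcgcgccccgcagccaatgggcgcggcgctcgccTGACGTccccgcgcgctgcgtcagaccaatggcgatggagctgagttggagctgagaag
Vip: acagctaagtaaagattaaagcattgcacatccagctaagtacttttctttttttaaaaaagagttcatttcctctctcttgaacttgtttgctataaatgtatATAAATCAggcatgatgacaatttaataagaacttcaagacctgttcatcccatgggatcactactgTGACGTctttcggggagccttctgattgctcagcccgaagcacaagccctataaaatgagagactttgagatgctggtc
Scg2: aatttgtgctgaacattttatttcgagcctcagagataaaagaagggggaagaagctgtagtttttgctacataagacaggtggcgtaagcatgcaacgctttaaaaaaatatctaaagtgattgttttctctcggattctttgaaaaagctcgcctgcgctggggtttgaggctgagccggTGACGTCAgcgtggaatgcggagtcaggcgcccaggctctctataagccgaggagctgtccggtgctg
Aldh1a2 carries the octamer, its first base 84 bases before the start, Isl1 carries TGACGT, Vip carries TGACGT and the composite, and Scg2 carries the full TGACGTCA, which holds TGACGT on both strands. Over all 32851 promoter windows of 300 bases, TGACGT was found in 7.51%, TGACGTCA in 1.79%, ATTTGCAT in 1.74% and TGATTNAT in 3.22%. TGACGT was found in 5 of the 43 matched genes higher in TA (Scg2, Vstm2a, Sox6, Cd47 and Mapre3) and in 2 of the 28 higher in IF. TGATTNAT was found in none of the former and in 4 of the latter (Vip, Cpne4, Osmr and Clip4). Counted per gene rather than per window, over 27025 genes, TGACGT was found in 8.37% and TGATTNAT in 3.74%. In all, 10 motifs were searched, and these 4 motifs and genes were picked after the matches were seen, so they only describe the windows.

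The retinoid genes differed in opposite directions at 2 steps. Aldh1a2, which makes retinoic acid, was at 622, 479 and 379 CPM in TA and at 3.77, 4.37 and 1.45 CPM in IF. Its lowest TA library lay far above its highest IF library, and its log2 fold change of 7.25 ± 0.53 was the largest among genes called higher in TA (edgeR adjusted p = 5.72e-07). Crabp2, which binds retinoic acid in the cytoplasm, had no read in TA and was at 122, 125 and 126 CPM in IF (edgeR adjusted p = 0.00194). It was at least 709-fold higher in IF against a floor of 3 reads over the pool. This bound, like those below, covers counting error only and not the spread between libraries. In each TA library 9.76 to 13.7% of the tested genes had no read, against 0.732 to 1.38% in each IF library. The mm9 position of Crabp2 (ENSMUSG00000004885) is chromosome 3, 87752588 to 87757299, and that of Aldh1a2 (ENSMUSG00000013584) is chromosome 9, 71063596 to 71144051. These were the 2 called genes among 10 tested genes of retinoid synthesis, binding and breakdown, next to 0.628% of all tested genes. Neither call was lost with any library left out.

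The other retinoid genes were not called. Rdh10, which makes the retinaldehyde that Aldh1a2 uses, was at 5.42 to 18.8 CPM in TA and 2.34 to 16.6 in IF, with overlapping libraries (log2 fold change 0.30 ± 1.61). Aldh1a1, a second retinaldehyde dehydrogenase, was at 40.4 to 95.1 CPM in TA and 91.4 to 173 in IF (−0.99 ± 1.34). Fabp5, which can carry retinoic acid to other nuclear receptors, was at 26.2 to 30.2 CPM in TA and 49.7 to 65.8 in IF, groups that did not overlap (−1.03 ± 0.58, edgeR adjusted p = 0.579). None of the 6 retinoid receptors tested was called. Rara was at 6.78, 11.2 and 72.3 CPM in TA and 5.64 to 11.5 in IF, and Rarb had 5 reads in TA and 13 in IF.

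Of the Hox genes, 1 was called. Hoxc10 was at 475, 338 and 295 CPM in TA and at 8.86, 15.2 and 11.7 in IF, with a log2 fold change of 4.95 ± 0.57 (edgeR adjusted p = 0.000202). This was 1 of 30 Hox genes tested (3.33%, next to 0.628% of all tested genes), and its call held with any library left out. On mm9 it lies on chromosome 15 from 102797223 to 102802145. Other genes of the cluster were not called. Hoxc8 was at 76.5, 54.4 and 67.2 CPM in TA and at 4.17, 11.0 and 5.5 in IF, groups that did not overlap, with a log2 fold change of 3.26 ± 0.88 that was not called (edgeR adjusted p = 0.116). Hoxc9 was at 11.2, 0.361 and 49.1 CPM in TA and at most 0.713 in IF (edgeR adjusted p = 0.253).

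Hox genes without a call lay on both sides. Hoxb5 was at 2.04, 0 and 106 CPM in TA and at most 0.815 in IF, so its TA level rested on TA 3 (edgeR adjusted p = 0.401). Hoxc11, of the same cluster as Hoxc10, had no read in TA and was at 0 to 1.87 CPM in IF (edgeR adjusted p = 0.414). Hoxd11 was at 1.53, 0.542 and 0.176 CPM in TA and 47.9, 44.1 and 45.1 in IF (−5.89 ± 1.46, edgeR adjusted p = 0.0831). Hoxd10 was at 12.0 to 58.3 CPM in TA and 86.7 to 92.6 in IF, and Hoxa10 at 7.80 to 17.6 and 30.2 to 46.1. In all 3 genes the pools did not overlap, and the models of Hoxd10 and Hoxd11 overlap each other. These 3 were singled out after their values were seen. Of the 30 Hox genes, 11 lay apart toward IF and 3 toward TA, next to 17.9% and 11.7% of all tested genes. Over the 30 Hox genes, 13 had a log2 fold change above 0 and the median was −0.32, next to 0.05 for all genes. Meis2, a Hox cofactor, was at 133, 125 and 168 CPM in TA and 3.36, 11.7 and 8.68 in IF (4.16 ± 0.69, edgeR adjusted p = 0.00568), and the call was lost without IF 1 (adjusted p = 0.0548). The other 6 cofactors tested, among them Meis1 and Pbx3, were not called.

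Isl1 had no read in TA and was at 76.1, 115 and 100 CPM in IF, at least 544-fold higher in IF (edgeR adjusted p = 0.00194, called with any library left out). On mm9 Isl1 (ENSMUSG00000042258) lies on chromosome 13 from 117088478 to 117099897. It was the 1 gene called among 11 factors of the motor columns, next to 0.628% of all tested genes. Lhx1, the LIM factor known from lateral neurons of the lateral motor column, was at 5.43, 9.57 and 0 CPM in TA and at 0 to 2.17 in IF, and its libraries overlapped. Foxp1, which marks the lateral motor column as a whole, was at 136 to 180 CPM in TA and 187 to 221 in IF (−0.35 ± 0.49, edgeR adjusted p = 0.900).

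Of 13 genes listed for single motor pools, most of them transcription factors, 1 was called in each direction. Over all tested genes, 0.384% were called higher in TA and 0.244% in IF. Sox6 was at 78.9, 90.7 and 71.2 CPM in TA and 7.43, 4.50 and 8.68 in IF (3.54 ± 0.58, edgeR adjusted p = 0.0052), and the call was lost without IF 2 (adjusted p = 0.0611) and with limma voom (0.0684). Fign, which is not a transcription factor, varied widely in TA, at 0, 1.99 and 27.4 CPM. It stayed below its level in IF, at 393, 357 and 351 CPM (−5.22 ± 1.09, edgeR adjusted p = 0.0267). That call was lost without TA 2 or any 1 of the IF libraries (adjusted p from 0.0677 to 0.124), and with the TA and IF libraries alone (0.0624). Pou3f1, a POU factor of some limb pools, had no read in TA and was at 22.2, 22.7 and 23.0 CPM in IF, at least 129-fold higher, but was not called (edgeR adjusted p = 0.0825). The table holds Pou3f1 under 2 identifiers with identical counts.

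Secreted peptide genes differed in both directions. Calca, which encodes calcitonin gene-related peptide, was at 1247, 1455 and 894 CPM in TA and 93.7, 116 and 78.3 in IF (3.64 ± 0.38, edgeR adjusted p = 6.46e-05). Nts, the neurotensin precursor, was at 23.1, 30.2 and 45.2 CPM in TA and 2.24, 5.12 and 4.48 in IF (3.05 ± 0.44, edgeR adjusted p = 0.00175). Both calls held with any library left out, but that of Nts was lost with limma voom (adjusted p = 0.0878). In both genes every TA library lay above every IF library. Per length, Calca was the more abundant by far, at 341 RPKM in TA in the authors' values against 11.7 RPKM for Nts. Calca also stands in the list of alpha and fast motor neuron markers, where it was the 1 gene called of 10. Of that list, Chodl was at 872 to 1228 CPM in TA and 432 to 567 in IF (0.98 ± 0.36, edgeR adjusted p = 0.294), and the fast marker Mmp9 overlapped between the pools. Stk32a lay the other way without a call, at 2.20, 26.4 and 11.8 CPM in TA and 67.3, 68.2 and 69.0 in IF (edgeR adjusted p = 0.257). In all, 8 members had a log2 fold change above 0 and 2 below. Of 7 gamma and slow markers none was called.

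Vip, the precursor of vasoactive intestinal peptide, had no read in TA and was at 47.3, 54.9 and 63.4 CPM in IF, at least 310-fold higher in IF (edgeR adjusted p = 0.0131). The call was lost without any 1 of the 6 libraries compared (adjusted p from 0.0523 to 0.0655). Tac1, the precursor of substance P, was close to the threshold, with 1 read in TA and 53.7, 83.0 and 53.1 CPM in IF (edgeR adjusted p = 0.0502). Cartpt had no read in TA and was at 5.5 to 6.21 CPM in IF. Tacr1, the receptor for substance P, was at 295, 136 and 259 CPM in TA and 50.9, 41.2 and 59.3 in IF (2.19 ± 0.48, edgeR adjusted p = 0.0418), and it was singled out after its values were seen. The Tacr1 call was lost in 10 of the 15 fits with a library left out, all 3 IF libraries and TA 1 and TA 3 among them (adjusted p up to 0.336), and without scaling factors (0.116). Somatostatin, Sst, was at 779 to 1089 CPM in TA and 287 to 467 in IF without a call (1.36 ± 0.42, edgeR adjusted p = 0.204). Over 17 peptide precursors 2 were called higher in TA and 1 higher in IF (0.384% and 0.244% over all tested genes), and the median log2 fold change was −2.58, or −2.21 with genes at 0 reads set to their bound.

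Scg2, a granin of dense-core vesicles, was at 492, 480 and 252 CPM in TA and 80.2, 120 and 107 in IF (1.99 ± 0.37, edgeR adjusted p = 0.0106). It was the 1 gene called of 11 granins and peptide-processing genes, next to 0.628% of all tested genes. The call was lost without TA 1, TA 2 or any 1 of the IF libraries (edgeR adjusted p from 0.053 to 0.121). Vgf, another granin, was at 143 to 271 CPM in TA and 52.5 to 61.2 in IF, with an edgeR adjusted p of 0.0585.

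Cell adhesion genes of the immunoglobulin family held some of the firmest calls. Alcam was at 682, 730 and 694 CPM in TA and 111, 152 and 143 in IF (2.37 ± 0.33, edgeR adjusted p = 0.00117). Ncam2 was at 996, 660 and 777 CPM in TA and 183, 193 and 202 in IF (2.07 ± 0.30, edgeR adjusted p = 0.00175). Negr1 lay the other way, at 81.2, 73.0 and 121 CPM in TA and 655, 653 and 738 in IF (−2.89 ± 0.36, edgeR adjusted p = 0.000518). These were the 3 genes called of 20 tested (15%, next to 0.628% of all genes), and each held with any library left out. Cadm1, an adhesion molecule of synapses that ranked among the largest changes, was at 108 to 149 CPM in TA and 7.0 to 11.0 in IF (3.90 ± 0.66, edgeR adjusted p = 0.00574), a call lost without IF 1 or IF 2 (adjusted p 0.0564 to 0.0702). Vstm2a, an immunoglobulin-domain protein, was at 590, 516 and 843 CPM in TA and 70.1, 78.5 and 70.6 in IF (3.15 ± 0.41, edgeR adjusted p = 0.000653).

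Guidance receptors and cadherins gave single calls. Unc5d, a netrin receptor, was at 0.848, 13.0 and 5.98 CPM in TA and 232, 172 and 230 in IF (−5.00 ± 0.73, edgeR adjusted p = 0.00182). Cdh12, a classical cadherin, was at 20.01, 74.9 and 20.4 CPM in TA and 307, 384 and 329 in IF (−3.14 ± 0.53, edgeR adjusted p = 0.00574). In both genes TA 2 was the highest TA library and still lay below every IF library, and both calls held with any library left out. Plxna2, a semaphorin co-receptor, was at 192 to 230 CPM in TA and 38.5 to 49.1 in IF (2.31 ± 0.43, edgeR adjusted p = 0.0126), and was lost without any 1 of the IF libraries (adjusted p 0.0744 to 0.128) and with limma voom (0.0602). Of 17 Eph receptors and ephrins none was called. Epha3 was at 37.0, 9.57 and 31.5 CPM in TA and 120, 128 and 125 in IF (−2.26 ± 0.61, edgeR adjusted p = 0.116).

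Hs3st4, a sulfotransferase that modifies heparan sulfate, was at 4.41, 3.25 and 0.879 CPM in TA and 114, 107 and 106 in IF (−5.25 ± 0.77, edgeR adjusted p = 0.00182). It was the 1 gene called of 21 heparan sulfate enzymes (next to 0.628% of all tested genes), and the call held with any library left out. Reln, the secreted protein reelin, was at 229, 104 and 253 CPM in TA and 19.7, 25.4 and 21.4 in IF (3.14 ± 0.64, edgeR adjusted p = 0.0247). The Reln call was lost without TA 1, TA 3 or any 1 of the IF libraries (adjusted p 0.0842 to 0.19), and without scaling factors (0.0568).

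Receptors of the interleukin-6 family were among the genes higher in IF. Lifr, the receptor for leukemia inhibitory factor, which also serves ciliary neurotrophic factor, was at 274, 160 and 265 CPM in TA and 1471, 1268 and 1438 in IF (−2.58 ± 0.34, edgeR adjusted p = 0.000835), and held with any library left out. Osmr, the oncostatin M receptor, had 2 reads in TA and was at 160, 187 and 141 CPM in IF, a ratio of 1397 (95% counting interval 386 to 11537, edgeR adjusted p = 0.0259). The Osmr call was lost without any 1 of the 6 libraries compared (adjusted p 0.0664 to 0.15). Il6st, the chain both pair with, overlapped between the pools at 204 to 379 CPM in TA and 176 to 218 in IF. Cntfr, which completes the receptor for ciliary neurotrophic factor, was at 122 to 150 CPM in TA and 51.1 to 67.9 in IF and was not called (1.21 ± 0.52, edgeR adjusted p = 0.362). Lifr and Osmr were the 2 genes called of 20 neurotrophic receptors, next to 0.628% of all tested genes. None of 7 ligands was called.

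Ion channel genes called higher in TA included 4 of 56 potassium channel genes, with none called higher in IF, next to 0.384% of all tested genes called higher in TA and 0.244% in IF. Kcnc1, a fast delayed rectifier of the Kv3 family, was at 247, 202 and 101 CPM in TA and 38.2, 32.1 and 25.2 in IF (2.53 ± 0.51, edgeR adjusted p = 0.0247). Kcna1, a low-threshold Kv1 channel, was at 1076, 1103 and 1545 CPM in TA and 515, 433 and 368 in IF (1.5 ± 0.31, edgeR adjusted p = 0.0259). Kcng4, a silent subunit that modifies other channels, was uneven in TA at 7.12, 80.0 and 294 CPM and was at most 2.24 in IF (6.42 ± 1.32, edgeR adjusted p = 0.0259).

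Of the 56 potassium channel genes 42 had a log2 fold change above 0 and the median was 0.90, against 0.05 for all genes. Without scaling factors the count above 0 was 35 and the median 0.50, against −0.34 for all genes. Without IF 1 the number called in TA was 1, and without IF 2 or IF 3 it was 0. It was 2 without TA 2 or TA 3. The calls of Kcnc1, Kcna1 and Kcng4 were each lost without any 1 of the IF libraries. That of Kcnc1 was also lost without TA 1 or TA 2 (adjusted p 0.0785 to 0.223 over these fits), that of Kcna1 without TA 2 or TA 3 (0.0533 to 0.225) and that of Kcng4 without TA 3 (0.108 to 0.174). The Kcnc1 call was lost without scaling factors (0.0525) and with limma voom (0.0542), and the Kcng4 call with limma voom (0.207) and with the TA and IF libraries alone (0.0501). Oligodendrocyte, astrocyte and interneuron sums were higher in TA as well, and their part in the channel differences was not tested.

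Scn9a, a voltage-gated sodium channel known from sensory and autonomic neurons, was higher in IF, at 52.6, 37.7 and 38.0 CPM in TA and 334, 267 and 290 in IF (−2.80 ± 0.46, edgeR adjusted p = 0.0052, called with any library left out). It overlaps 2 gene models, Gm13627 and Gm13629, and the library kit does not mark strand, so their reads cannot be told apart. Of the same list of 34 sodium, calcium and HCN channel genes, the AMPA receptor auxiliary subunits Cacng5 and Cacng7 were higher in TA. Cacng5 was at 155, 176 and 240 CPM in TA and 31.2, 21.4 and 27.6 in IF (2.83 ± 0.50, edgeR adjusted p = 0.00816), and Cacng7 at 192, 116 and 258 against 40.5, 29.7 and 35.6 (2.42 ± 0.47, edgeR adjusted p = 0.0179). Glra1, the adult glycine receptor subunit, was at 371, 586 and 388 CPM in TA and 95.1, 71.1 and 69.0 in IF (2.51 ± 0.47, edgeR adjusted p = 0.0109), the 1 gene called of 38 receptors for glutamate, GABA and glycine. The calls of Cacng5, Cacng7 and Glra1 were each lost without any 1 of the IF libraries. That of Cacng7 was also lost without TA 1 or TA 3, and that of Glra1 without TA 2 (adjusted p 0.0539 to 0.19 over the 3 genes).

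Chrna3, the nicotinic subunit of autonomic ganglia, had 4 reads in TA and was at 70.2, 57.7 and 57.4 CPM in IF (edgeR adjusted p = 0.0207). It was the 1 gene called of 11 acetylcholine genes, next to 0.628% of all tested genes. Further genes had few reads in TA. Col8a1, a short-chain collagen, had 1 read in TA and was at 113, 202 and 150 CPM in IF, a ratio of 2601 (95% counting interval 467 to 102759, edgeR adjusted p = 0.00437). Pirt, a membrane protein that regulates Trp channels, had 1 read in TA and was at 132, 85.7 and 101 CPM in IF, a ratio of 1852 (332 to 73180, edgeR adjusted p = 0.00461). Ppp1r1c, an inhibitor subunit of protein phosphatase 1, was at 0.678, 32.9 and 0.879 CPM in TA and 410, 578 and 506 in IF (−5.44 ± 1.03, edgeR adjusted p = 0.0126). The calls of Col8a1, Pirt and Ppp1r1c held with any library left out, but that of Ppp1r1c was lost with the TA and IF libraries alone (edgeR adjusted p = 0.056). Muscle marker sums were higher in IF as well, at 14 to 17 CPM, and their part in these differences was not tested.

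Cpne4, the 1 copine called of 9 (next to 0.628% of all tested genes), had 2 reads in TA and was at 196, 234 and 223 CPM in IF. That was a ratio of 1846 (511 to 15249, edgeR adjusted p = 0.00777). The Cpne4 call was lost without TA 1 or TA 3 (edgeR adjusted p 0.0523 to 0.0541). Reg3b, a secreted C-type lectin, had no read in TA and was at 75.6, 116 and 61.8 CPM in IF, at least 483-fold higher (edgeR adjusted p = 0.0105), and was lost without IF 1 or IF 2 (0.0559 to 0.0835). DESeq2 did not call Reg3b (adjusted p = 0.202). Prokr2, the prokineticin receptor, had no read in TA and was at 54.4, 61.0 and 52.5 CPM in IF, at least 320-fold higher (edgeR adjusted p = 0.0289). Gpr26 had 1 read, Adrbk2 2 reads and Cbln4 4 reads in TA, with 15.2 to 31.0, 36 to 45.0 and 45.2 to 48.8 CPM in IF. The calls of Chrna3, Prokr2, Gpr26 and Cbln4 were lost without any 1 of the 6 libraries, and that of Adrbk2 without any 1 of the TA libraries (adjusted p 0.0561 to 0.15 over the 5 genes). Lxn, a carboxypeptidase inhibitor singled out after its values were seen, was at 6.61, 6.86 and 14.8 CPM in TA and 284, 329 and 311 in IF (−5.03 ± 0.52, edgeR adjusted p = 6.46e-05, called with any library left out). Lxn overlaps Gfm1, whose reads cannot be told apart from it without strand.

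Among the remaining genes with large changes toward TA, Adra1b, an alpha-1 adrenergic receptor, was at 108, 34.0 and 49.2 CPM in TA and 3.87, 5.37 and 2.03 in IF (4.08 ± 0.76, edgeR adjusted p = 0.0119). Slc43a2, an amino acid transporter, was at 656, 97.7 and 139 CPM in TA and 19.2 to 32.0 in IF (3.60 ± 0.62, edgeR adjusted p = 0.00655). Pdgfd, a growth factor, was at 73.8 to 107 CPM in TA and 7.0 to 10.1 in IF, and the G protein subunit Gna14 at 108 to 160 and 8.68 to 17.2 (edgeR adjusted p = 0.0338 and 0.0381). All 4 calls depended on single libraries. Slc43a2 was lost without IF 1 or IF 3 and Adra1b without TA 1 or any 1 of the IF libraries, while Pdgfd and Gna14 were lost without any 1 of the 6 libraries. Pdgfd was also lost without EDL 1, GS 1 or GS 3, and Gna14 without any 1 of the EDL and GS libraries (adjusted p 0.0519 to 0.313 over the 4 genes). Without scaling factors the adjusted p was 0.0941 for Pdgfd and 0.133 for Gna14, and with limma voom it was 0.0515 for Adra1b. Cd47 and Nfia, singled out after their values were seen, held with any library left out. Cd47 was at 944, 913 and 896 CPM in TA and 254, 222 and 221 in IF (1.98 ± 0.27, edgeR adjusted p = 0.00115), and Nfia, a transcription factor of glia and neurons, at 2020, 1743 and 2172 against 585, 476 and 572 (1.86 ± 0.29, edgeR adjusted p = 0.00276).

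Glial transcripts were also among the genes higher in TA. All 15 tested oligodendrocyte markers had a log2 fold change above 0, with a median of 2.30, and 2 were called, Mbp among them. Mbp, a myelin protein, was at 215, 378 and 424 CPM in TA and 91.3, 56.1 and 58.7 in IF (2.30 ± 0.49, edgeR adjusted p = 0.0321). Without TA 3, the library with the highest sum, none of the 15 was called, the median was 2.11 and 14 of the markers lay above 0. The Mbp call was also lost without TA 2, any 1 of the IF libraries, EDL 1 or GS 1 (adjusted p 0.0522 to 0.267 over these fits and that without TA 3) and without scaling factors (adjusted p = 0.0725). Mog was at 0, 11.4 and 42.6 CPM in TA and had 1 read in IF. Of 10 astrocyte markers, Slc1a2, the glial glutamate transporter, was called at 1937, 1308 and 2200 CPM in TA and 608, 633 and 803 in IF (1.41 ± 0.27, edgeR adjusted p = 0.0131), a call lost without TA 1, TA 3 or any 1 of the IF libraries (0.0576 to 0.148) and without scaling factors (0.073). The median log2 fold change of the 10 astrocyte markers was 0.42, against 0.05 for all genes, and 8 lay above 0. Without scaling factors that median was 0.04, against −0.34 for all genes. The part of glial transcripts in other differences was not tested.

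**Figure D4:**
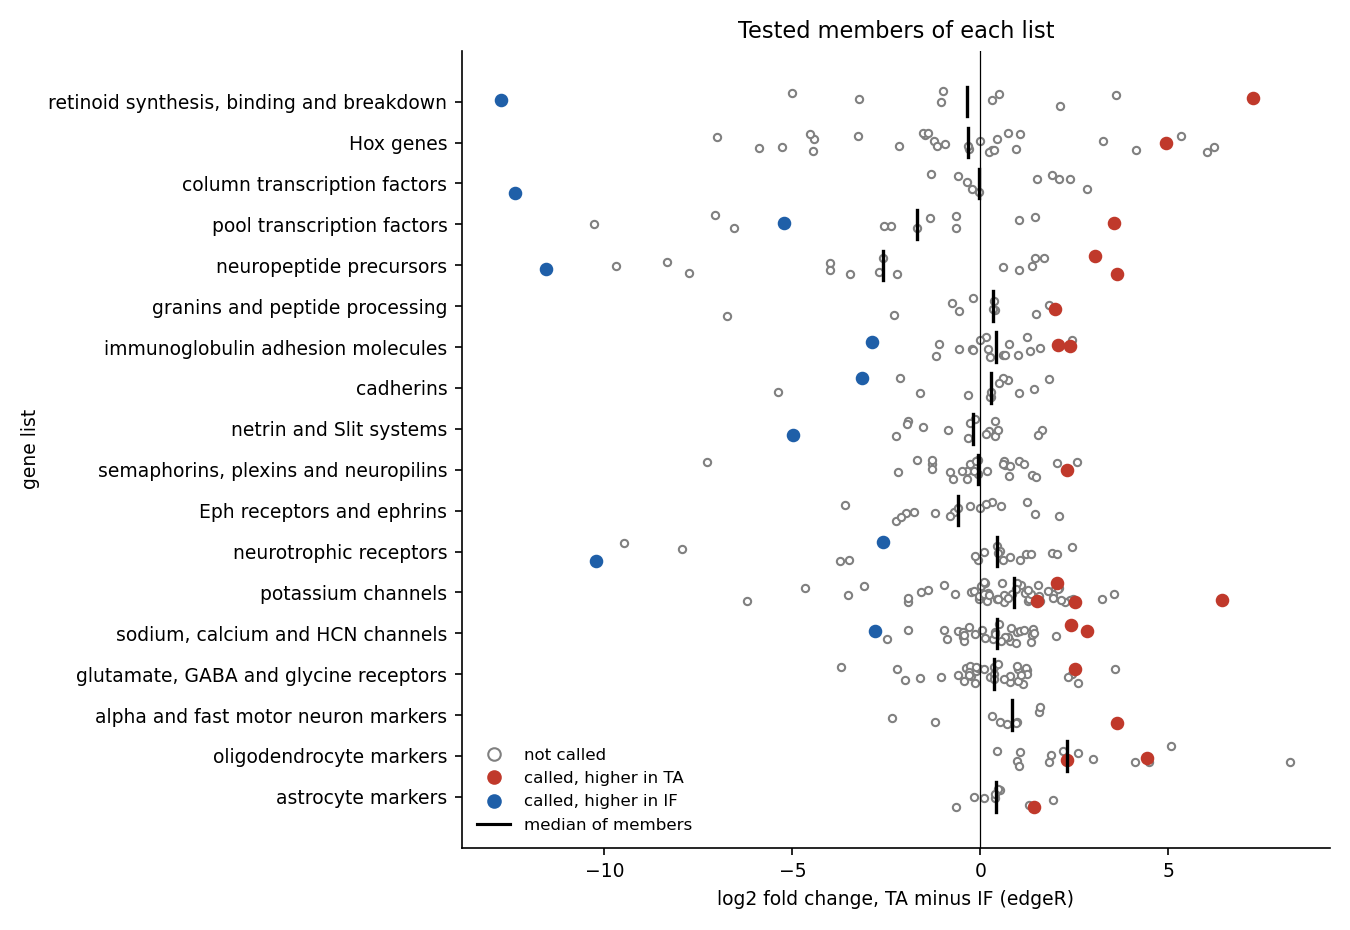
Fitted log2 fold change, TA minus IF (x axis), of each tested member of 18 gene lists (rows). Open circles were not called, filled circles were called and bars are medians of the members. The row of pool transcription factors includes Fign, which is not a transcription factor. Oligodendrocyte markers lie on the TA side with a median of 2.30, potassium channels have a median of 0.90, and peptide precursors spread to both sides.

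The authors' deposited lists gave 63 genes higher in TA than IF and 43 higher in IF than TA. Of the 63, 62 were tested here and all 62 had the same sign, and 30 were called, 47.6% of their list and 54.5% of the 55. With DESeq2, 47 of the 63 were called (74.6%), and with the TA and IF libraries alone 45 (71.4%). Of the 43, all had the same sign and 28 were called, 65.1% of their list and 80.0% of the 35. Genes in the authors' deposited table that were not called here included Olig2, a transcription factor of oligodendrocyte precursors, at 126, 21.1 and 103 CPM in TA and 7.43, 12.9 and 10.7 in IF (edgeR adjusted p = 0.301). Another was Tmem108, whose TA level rested on TA 3, at 39.2, 53.6 and 544 CPM against 33.1 to 38.9 in IF. The lists come from the same libraries and are no independent evidence. Their cuts also differ from the one used here. No gene in them lay below 10 RPKM in its higher pool or above a DESeq adjusted p of 0.011. Here the cut was an adjusted p of 0.05 without an RPKM floor, and Meis2, for example, was called at 5.02 RPKM in TA. The shares above therefore reflect the unlike cuts as well.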

How the data were processed

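RNA from laser-captured, tracer-marked motor neurons was amplified with the Ovation RNA-Seq V2 kit and made into unstranded Nextera libraries, per the labels' protocols. Bowtie 0.12.9, mm9 and DESeq are named in the submitters' processing notes; which program counted reads, and on which gene models, is not stated in those notes or the labels. The deposited gene table holds unnormalized counts and the authors' RPKM values for 36814 genes, 16357 of them without a read. In it, 4 genes had values below 0 (16 cells) and were left out. For TA against IF the authors also deposited, per the file headers, mean normalized counts (a signal), their fold ratio, its log2 value and p-values.

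Counts were tested with edgeR 4.0.16 (R 4.3.3; TMM scaling, filterByExpr by pool, quasi-likelihood F-test), with all 15 libraries in 1 fit, the contrast TA minus IF and Benjamini-Hochberg adjustment over 14340 genes. The threshold was an adjusted p of 0.05, and the SE is the log2 fold change divided by the square root of F. With a pool at 0 reads the fold is a bound against 3 reads over the pool. Between 1 and 3 reads, the ratio stands with an exact 95% interval. Both the bound and the interval cover counting error only, not the spread between libraries. Named genes were the 4 pool markers, up to 15 called genes per direction by fold change with pools apart (clone names left out), the called members of 32 gene lists (up to 8 by p, or else the 2 with the smallest p), and list members with no read in one pool. Other list members are given as values. Some genes that the rule or the lists include are counted but not reported here by name. Members, lists and motifs were chosen with earlier results of these data known. On simulated counts for TA against IF (13930 genes), 76 of 100 genes changed by a log2 value of 4 were recovered and 24 of 100 changed by 2, with 2 false calls. The changed genes were drawn from the more abundant ones, and each gene had the same spread in every pool. In the data the spread differed (median coefficient of variation 50.2% in TA and 16% in IF), so these rates need not hold for this comparison. Of the 90 called genes, 17 overlap another gene with at least 10 reads. Alternatives were DESeq2 1.42.0, limma 3.58.1 (voom), other scaling and filters, TA and IF alone, a replicate block and each library left out.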

Additional observations from a re-analysis of the deposited data

How the results depend on the processing

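No gene that was named and called changed sign under any alternative tried, while some genes without a call did, Rdh10 and Mmp9 among them. Without scaling factors the medians of granins, cadherins, neurotrophic ligands, heparan sulfate enzymes and receptors for glutamate, GABA and glycine went from above to below 0. The 90 calls (55 higher in TA, 35 in IF) became 420 (195 and 225) with DESeq2, where 952 adjusted p were NA, 251 (81 and 170) with limma voom, 242 (150 and 92) without the low-count filter, 469 (287 and 182) with TA and IF libraries alone and 454 (289 and 165) without PL 2 and PL 3. Without scaling factors 80 genes were called, 35 higher in TA and 45 in IF. With 1 library left out the calls ranged from 36 to 188, those higher in TA from 14 to 119 and those higher in IF from 22 to 69. The difference in genes detected, −3407 at 1 read or more, was −2671 at 5 reads or more. The cause of these shifts was not tested. Of the 90 genes, 89 were also called by DESeq2, 87 with TA and IF alone, 80 with limma voom and 70 without scaling factors (35 of the 55 higher in TA). TA and IF libraries share replicate numbers, and same-numbered libraries deviated together weakly (correlations 0.018, 0.014 and 0.026). Pairs with unlike numbers ran from −0.018 to 0.0016. Whether same-numbered libraries share a batch or animals was not tested. With the replicate number as a block 78 genes were called (45 and 33), 76 of them among the 90, and each TA library correlated best with the IF library of its own number. Low counts in TA limit the bounds given for genes without a read there.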
